A study of Mus musculus with 6 samples.

Results

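The 9 genes described here belong to the absorptive apparatus of the yolk sac endoderm: the endocytic receptors *Cubn*, *Lrp2* and *Folr1*, the receptor partner *Amn*, the chaperone *Lrpap1*, the adaptor *Dab2*, and the brush border and intracellular proteins *Pdzk1*, *S100g* and *Lgals2*. They were chosen by their levels in these same libraries, so that every value of theirs is a description and carries no test. All 9 symbols were found among the 55401 genes of the count table, and all 9 were among the 16784 genes that passed the filter on low counts, although *Amn* did so only with both WT replicate 1 and 5C replicate 3 present. mRNA was sequenced from whole mouse embryos at E10.5 on a C57BL/6J background. The series compared wild-type (WT) littermates with *Mir483* 5C embryos (5C), which carry a tandem array of 5 copies of the microRNA gene *Mir483* at the endogenous *Igf2* locus. The array was placed by cassette exchange in embryonic stem cells and was passed on by chimeric males, so its expression depends on the imprinted *Igf2* locus. There were 3 libraries of either genotype, each made, by the methods given, from the pooled lysate of a pair of male embryos.

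Before the placenta takes over, the visceral endoderm of the yolk sac feeds the embryo by taking up maternal proteins. Megalin (*Lrp2*) and cubilin (*Cubn*) are giant receptors at the apical surface that bind carriers of vitamins, lipids and iron. Cubilin, which lacks a membrane anchor, reaches the surface only with amnionless (*Amn*). The receptors are gathered into clathrin-coated pits by DAB2, and the same machinery works in the proximal tubule of the kidney and, for megalin, in the neuroepithelium.

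Promoter windows of 250 bases before to 50 bases after the transcription start (RefSeq, GRCm38.p6) were available for 8 of the 9 genes, with *Folr1* not in the table. Those of *Cubn*, *S100g* and *Lgals2* are printed as examples of genes that ranged widely between libraries, and that of *Lrpap1* because it varied least. Capitals mark matches, on either strand, to 6 short motifs, none of which overlapped another. The half-site of the endoderm factor HNF1 was searched as GTTAAT and the half-site of the nuclear receptor HNF4 was searched as CAAAGT. For GATA factors the letters were AGATAA and for the intestinal CDX factors they were TTTATGG. The core promoter was searched for the TATA box, written TATAAA, and for the GC box that binds Sp1, written GGGCGG.
Cubn, chr2:13491827-13492126, minus strand: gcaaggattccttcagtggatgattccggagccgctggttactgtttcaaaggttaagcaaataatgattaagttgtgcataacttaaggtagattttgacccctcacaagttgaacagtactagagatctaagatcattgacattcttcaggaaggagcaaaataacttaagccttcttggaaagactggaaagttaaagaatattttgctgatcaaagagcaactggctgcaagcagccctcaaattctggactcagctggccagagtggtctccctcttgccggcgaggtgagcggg
S100g, chrX:162964550-162964849, minus strand: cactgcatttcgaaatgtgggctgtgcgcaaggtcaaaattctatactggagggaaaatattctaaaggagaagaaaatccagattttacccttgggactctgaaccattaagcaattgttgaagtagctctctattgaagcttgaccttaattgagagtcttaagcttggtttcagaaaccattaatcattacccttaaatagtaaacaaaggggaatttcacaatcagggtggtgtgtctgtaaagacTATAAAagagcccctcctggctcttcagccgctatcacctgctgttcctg
Lgals2, chr15:78855480-78855779, minus strand: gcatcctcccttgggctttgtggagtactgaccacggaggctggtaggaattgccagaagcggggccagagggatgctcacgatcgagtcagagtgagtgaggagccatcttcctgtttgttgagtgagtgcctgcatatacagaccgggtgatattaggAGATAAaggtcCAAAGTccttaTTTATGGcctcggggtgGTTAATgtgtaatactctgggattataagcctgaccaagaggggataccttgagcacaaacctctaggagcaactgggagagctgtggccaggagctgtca
Lrpap1, chr5:35105650-35105949, minus strand: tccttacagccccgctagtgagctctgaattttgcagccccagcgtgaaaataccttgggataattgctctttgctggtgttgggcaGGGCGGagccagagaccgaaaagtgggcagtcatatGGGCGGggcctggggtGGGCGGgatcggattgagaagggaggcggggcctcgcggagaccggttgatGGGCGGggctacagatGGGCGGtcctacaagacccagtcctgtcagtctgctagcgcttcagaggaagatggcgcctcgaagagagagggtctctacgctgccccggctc
The printed windows had none of the 6 motifs in common. The *Cubn* window held none of the 6 motifs and 5 CpG dinucleotides. The *S100g* window held 3 CpG and a TATAAA that began at the annotated start itself, a motif found in 13.6% of all 32851 windows. In the *Lgals2* window the GATA, HNF4, CDX and HNF1 letters followed each other, beginning 90, 79, 68 and 51 bases before the start. Over all windows these motifs occurred in 11.2%, 14.4%, 2.7% and 7.1%, in that order. The *Lrpap1* window had 18 CpG against a median of 7.0 over all windows, and 5 copies of GGGCGG, a motif present in 35.7% of windows. The *Lrp2* window was also CpG-rich, with 20 CpG, 2 copies of GGGCGG and a CAAAGT. *Amn* and *Pdzk1* also ranged widely, and their windows are not printed. The *Amn* window held 15 CpG and a GC box. In *Pdzk1*, a window with 4 CpG held a GGGCGG and a CAAAGT, and another with 7 CpG held none of the 6 motifs. In *Dab2*, a window with 2 CpG held a CAAAGT and a GATA match, and another with 19 CpG held a GTTAAT. The HNF4 letters were thus shared by *Lgals2*, *Lrp2*, *Pdzk1* and *Dab2*, and the GC box by *Amn*, *Lrp2*, *Lrpap1* and *Pdzk1*. A match is a run of letters and says nothing about binding.

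The mature products of the edited gene are shown with their seed (bases 2 to 8) in capitals, since a match to the seed in a 3′ UTR is how a target would be recognised.
miR-483-3p, chr7:142654932-142654952, minus strand: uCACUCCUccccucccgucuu
miR-483-5p, chr7:142654968-142654989, minus strand: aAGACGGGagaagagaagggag
For each gene the 3′ UTR of the transcript with the longest coding sequence was searched, and other transcripts were not. In none of the 9 genes did it hold a match to the seed of either strand, that is AGGAGTG for miR-483-3p or CCCGTCT for miR-483-5p. Among 20710 coding genes with an annotated 3′ UTR, 9.6% held the former and 2.5% the latter. The 3′ UTRs searched in the 9 genes ran from 133 to 1929 bases.

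The 6 libraries held between 6357343 and 19151368 counts, and 3 counts, the floor used here, corresponded to 0.157 to 0.477 CPM (counts per scaled library total, with TMM factors). *Mir483* itself stood at 0.576, 0.428 and 0.318 CPM in WT replicates 1, 2 and 3 and at 5.14, 4.34 and 2.56 CPM across the 5C libraries, higher in every 5C library than in any WT library. These *Mir483* reads came from mRNA libraries and do not measure the mature microRNAs, and the WT values lay near the floor. *Xist* was read in all 6 libraries at 494 to 912 CPM, and the Y-linked *Ddx3y* was at 0.942 CPM in WT replicate 2 and 0 in 5C replicate 2 against 41.5 to 55.8 CPM elsewhere, which goes against pools of male embryos alone. WT replicate 1, and to a lesser degree 5C replicate 3, stood apart from the others in the genes of yolk sac endoderm, and the genotype differences of the 9 genes are given with and without them. In bulk tissue, fewer cells of a type and less RNA per cell cannot be told apart.

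*Cubn* (ENSMUSG00000026726, chr2:13276338-13491813, minus strand, 66 exon blocks) spanned the widest range of the receptors. It stood at 502, 9.68 and 28.6 CPM in WT replicates 1, 2 and 3 and at 3.87, 3.24 and 83.5 CPM in 5C replicates 1, 2 and 3. WT replicate 1 lay 51.9-fold above the median of the other 5 libraries, and 5C replicate 3 lay 12.3-fold above the median of the remaining 4. The genotypes overlapped, with 5C replicate 3 ranked next and WT replicate 3 after it.

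*Amn* (ENSMUSG00000021278, chr12:111271095-111276426, plus strand), the membrane anchor of cubilin, followed the same order at a level near the floor. Its counts were 206, 6 and 5 in WT and 8, 2 and 28 in 5C. Scaled, these were 10.8, 0.514 and 0.796 CPM and 0.484, 0.17 and 1.99 CPM. Only WT replicate 1 and 5C replicate 3 had more than 8 counts, so that the order of the other 4 libraries rests on very few reads. The ratio of *Amn* to *Cubn* counts was 0.0215 in WT replicate 1 and 0.0238 in 5C replicate 3. On at most 8 counts of *Amn* each, it was 0.0531 and 0.0278 in WT replicates 2 and 3 and 0.125 and 0.0526 in 5C replicates 1 and 2.

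*Lrp2* (ENSMUSG00000027070, chr2:69424340-69586065, minus strand, 80 exon blocks), which encodes megalin, varied much less than *Cubn*. Its levels were 244, 79.9 and 93.9 CPM across the WT libraries and 74.1, 56.0 and 93.3 CPM across the 5C libraries. WT replicate 1 was 3.05-fold above the median of the other 5 libraries, which kept within 56.0 to 93.9 CPM. The partner receptors therefore stood in quite different proportions. There were 2.06 counts of *Cubn* for each count of *Lrp2* in WT replicate 1 and 0.894 in 5C replicate 3, against 0.305 in WT replicate 3, 0.121 in WT replicate 2, 0.0522 in 5C replicate 1 and 0.0578 in 5C replicate 2. *Folr1* (ENSMUSG00000001827, chr7:101858331-101870788, minus strand), a lipid-anchored folate receptor that is also used by the neural tube, lay between these extremes. It was at 27.9, 3.0 and 3.18 CPM across the WT libraries and at 1.93, 1.87 and 6.96 CPM across the 5C libraries. Outside WT replicate 1 and 5C replicate 3 it kept within 1.87 to 3.18 CPM, a 1.7-fold range.

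*Lrpap1* and *Dab2* serve the receptors inside the cell, and both were present throughout. *Lrpap1* (ENSMUSG00000029103, chr5:35091501-35105766, minus strand) encodes RAP, the chaperone that keeps megalin and its relatives free of ligand on their way to the surface. It was the steadiest of the 9, at 86.2, 58.4 and 53.3 CPM across the WT libraries and 54.8, 57.2 and 64.1 CPM across the 5C libraries, a 1.62-fold range over all libraries. *Dab2* (ENSMUSG00000022150, chr15:6299788-6440712, plus strand), the clathrin adaptor, was at 103, 26.7 and 34.4 CPM across the WT libraries and 32.5, 40.1 and 42.5 CPM across the 5C libraries. WT replicate 1 was 3.0-fold above the median of the others for *Dab2*, and without it every 5C library lay above WT replicate 2. The lowest library was WT replicate 2 for *Dab2*, whereas *Lrp2* was lowest in 5C replicate 2. *Lrpap1* was nearly level in WT replicate 3 (53.3 CPM) and 5C replicate 1 (54.8 CPM). The lowest library of *Amn*, *Pdzk1*, *S100g* and *Lgals2* is not settled at their counts. *Cubn* (64 and 38 counts) and *Folr1* were close in 5C replicates 1 and 2.

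The 3 brush border and cytosolic genes had at most 21 counts in any library other than WT replicate 1 and 5C replicate 3. *Pdzk1* (ENSMUSG00000038298, chr3:96829284-96870926, plus strand), a scaffold that holds transporters at the apical membrane, had 700, 19 and 21 counts in WT and 5, 0 and 124 in 5C. This was 36.6, 1.63 and 3.34 CPM and 0.302, 0 and 8.81 CPM. *S100g* (ENSMUSG00000040808, chrX:162961992-162964599, minus strand), which encodes the small calcium buffer calbindin-D9k, had 1055, 18 and 17 counts in WT and 5, 3 and 189 in 5C. For both genes WT replicate 1 was highest, 5C replicate 3 second and the other 5C libraries lowest. The corresponding *S100g* levels were 55.2, 1.54 and 2.71 CPM across the WT libraries and 0.302, 0.256 and 13.4 CPM across the 5C libraries. *Lgals2* (ENSMUSG00000043501, chr15:78850860-78855529, minus strand), a galactoside-binding lectin of absorptive epithelia, had 419, 9 and 14 counts in WT (21.9, 0.771 and 2.23 CPM) and 0, 0 and 69 in 5C (0, 0 and 4.9 CPM). Against the floors of the libraries without a count, *Lgals2* in WT replicate 1 was at least 121-fold higher than in 5C replicate 1 and at least 85.6-fold higher than in 5C replicate 2, and *Pdzk1* was at least 143-fold higher than in 5C replicate 2. Of the exonic bases of *Pdzk1*, 41.7% lie opposite exons of *Cd160*, *4930442L01Rik* and *Gpr89*. The counting strand was not stated. *Pdzk1* had 0 and 5 counts in 2 of the 5C libraries, so few reads of those genes can have been counted for it there, but reads under both may have been dropped. The other 8 genes shared at most 6.4% of their exonic bases with a gene on the opposite strand, and none of the 9 shared any on its own strand.

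**Figure D1:**
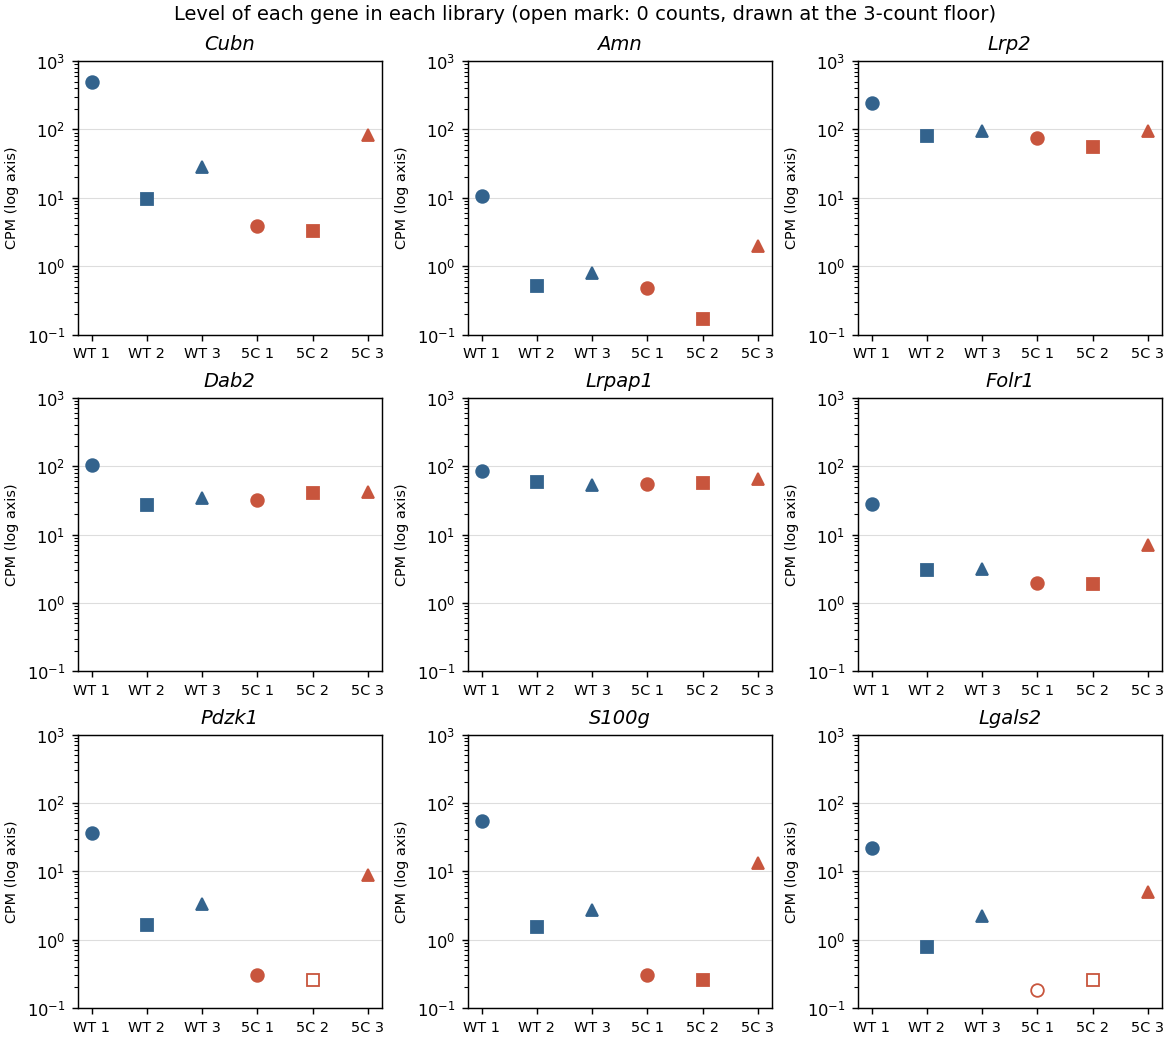
CPM of each of the 9 genes (log axis) in the 3 WT libraries (blue) and the 3 5C libraries (red), numbered by replicate; open marks are libraries with 0 counts, drawn at the 3-count floor. WT replicate 1 is the highest library in all 9 panels, and *Cubn* runs from 3.24 to 502 CPM while *Lrpap1* stays between 53.3 and 86.2 CPM.

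WT replicate 1 was highest and 5C replicate 3 second for 8 of the 9, the exception being *Lrp2*, in which WT replicate 3 (93.9 CPM) and 5C replicate 3 (93.3 CPM) were level; of all genes tested 4.08% showed this order. For 6 of the 9 (*Cubn*, *Amn*, *Folr1*, *Pdzk1*, *S100g* and *Lgals2*) WT replicate 1 was at least 4-fold above the median of the other libraries, which 0.655% of all genes tested were. These shares are printed for scale only, because the same levels chose the genes. Over all genes tested, the median ratio of WT replicate 1 to the other libraries was 0.993.

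**Figure D2:**
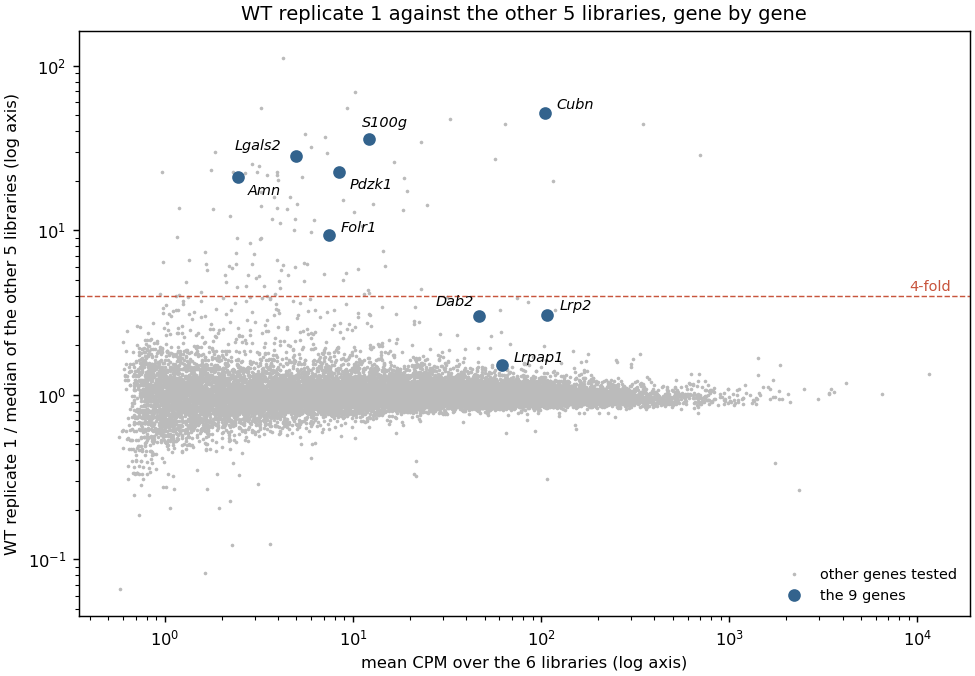
Each of the 16784 genes tested is a grey point at its mean CPM (horizontal log axis) and the ratio of WT replicate 1 to the median of the other 5 libraries (vertical log axis), with the 9 genes in blue and a dashed line at 4-fold. *Cubn* is at 51.9, *Lrp2* at 3.05, *Dab2* at 3.0 and *Lrpap1* at 1.51, among points that centre on 0.993.

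Summed over the 9 genes, the level was 1088, 182 and 222 CPM across the WT libraries and 168, 159 and 319 CPM across the 5C libraries. The sum changed in its make-up as well as in its size. *Cubn* made up 46.2% of it in WT replicate 1 and 26.1% in 5C replicate 3, against 2.04% to 12.9% in the other libraries. *Lrp2*, *Lrpap1* and *Dab2* together made up 39.8% and 62.6% in those same libraries and 81.6% to 96.5% elsewhere. Per kilobase of exon, which allows genes to be compared, *S100g* was the most abundant of the 9 in WT replicate 1 (115 CPM per kb) and in 5C replicate 3 (28.0 CPM per kb). In the other 4 libraries *Lrpap1* led, at 13.0 to 14.2 CPM per kb. On the same scale *Cubn* was at 33.6 and *Lrp2* at 14.6 CPM per kb in WT replicate 1, whereas in 5C replicate 1 *Cubn* was at 0.259 and *Lrp2* at 4.44 CPM per kb.

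**Figure D3:**
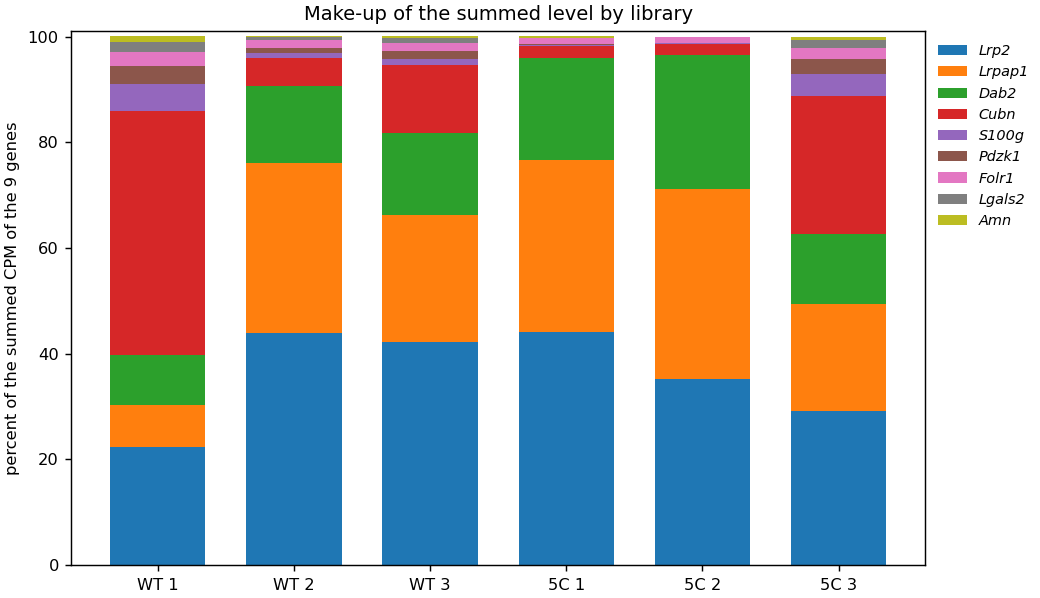
Stacked bars give the percent of the summed CPM of the 9 genes taken by each gene in each library. *Cubn* takes 46.2% in WT replicate 1 and 26.1% in 5C replicate 3, and *Lrp2*, *Lrpap1* and *Dab2* together take 81.6% to 96.5% in the other 4 libraries.

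Ratios of counts within a library do not depend on its scaling. *S100g* had 0.11, 0.159 and 0.0944 counts per count of *Cubn* in WT and 0.0781, 0.0789 and 0.161 in 5C. *Pdzk1* had 0.073, 0.168 and 0.117 in WT and 0.0781, 0 and 0.106 in 5C. The ratio of either gene to *Cubn* thus varied far less than the level of *Cubn* did, wherever the gene was counted at all. It rests on at most 21 counts of the gene in WT replicates 2 and 3 and at most 5 in 5C replicates 1 and 2. These are too few to say whether the gene moved with *Cubn* there. *Folr1* did not keep such a ratio, with 0.0557, 0.31 and 0.111 counts per count of *Cubn* in WT and 0.5, 0.579 and 0.0834 in 5C. Against *Lrp2*, *Dab2* stood at 0.422, 0.334 and 0.366 in WT and at 0.438, 0.717 and 0.456 in 5C. *Lrpap1* stood at 0.353, 0.731 and 0.568 counts per count of *Lrp2* in WT and at 0.739, 1.02 and 0.686 in 5C, lowest where *Lrp2* was highest.

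Across the 6 libraries, the log2 CPM of the other 8 genes followed that of *Cubn* with Pearson's r from 0.802 (*Dab2*) to 0.993 (*S100g*), over points that share their library and depth. The 36 pairs among the 9 genes had a median r of 0.919. Over all genes tested the median r with *Cubn* was -0.036, and 0.626% exceeded 0.95. When WT replicate 1 and 5C replicate 3 were both set aside, a choice made after seeing the data that leaves 4 points, *Dab2* and *Lrpap1* no longer followed *Cubn* (r of -0.299 and -0.474). Over the same points r was 0.879 for *Lrp2* and 0.93 for *Folr1*. *Amn*, *Pdzk1*, *S100g* and *Lgals2* had at most 21 counts in each of those libraries, too few to say whether they followed *Cubn* there.

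The genes most like *Cubn* over the 6 libraries, among 10342 other genes with a mean of at least 10 CPM, were *Apob* (r = 0.9993), *Apoa1*, *Spp2*, *Fga*, *Slc2a3*, *Apom*, *Krt8*, *Fgg*, *Rbp4* and *Afp* (r = 0.9836). Most of these encode proteins secreted into plasma or yolk sac fluid: the apolipoproteins of secreted lipid particles, chains of fibrinogen, the retinol carrier and alpha-fetoprotein. *Apob* stood at 1641, 37.0 and 118 CPM across the WT libraries and 16.6, 15.2 and 268 CPM across the 5C libraries. *Slc2a3*, a glucose transporter, and *Krt8*, an epithelial keratin, ranked the 4 highest libraries in the same order over a far narrower range, from 122 to 224 CPM and from 22.4 to 52.8 CPM. Those most like *Lrp2* were *D2hgdh* (r = 0.992), *Zfp609*, *Prss8*, *Gpx3* and *Fam83h* (r = 0.9866). Only *Prss8*, a membrane-anchored serine protease, and *Gpx3*, a secreted glutathione peroxidase, exceeded a 2-fold range among these 5, at 6.05 to 32.1 CPM and 28.4 to 97.1 CPM.

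Between genotypes, WT means exceeded 5C means for all 9 genes, and in WT the SD exceeded the mean for *Cubn*, *Amn*, *Folr1*, *Pdzk1*, *S100g* and *Lgals2*. *Cubn* was at 180 ± 279 CPM across the WT libraries and 30.2 ± 46.1 CPM across the 5C libraries (mean ± SD, n = 3 each), a fitted log2 fold change of -2.60 (SE 1.41, edgeR). *Lrp2* was at 139 ± 91.0 and 74.5 ± 18.7 CPM, with a log2 fold change of -0.92 (SE 0.37). *Lrpap1* was at 66.0 ± 17.7 and 58.7 ± 4.81 CPM, with a log2 fold change of -0.18 (SE 0.16). The SD within WT exceeded the difference between the means for all 9. The log2 fold changes of the remaining genes were -0.55 for *Dab2*, -1.75 for *Folr1*, -2.17 for *S100g*, -2.27 for *Pdzk1*, -2.33 for *Amn* and -2.44 for *Lgals2*, with a median over the 9 of -2.17 against 0.00 over all genes tested. The ranges of WT and 5C overlapped for all 9, while 5.08% of all genes tested lay wholly lower and 6.3% wholly higher in 5C.

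That direction reversed for most of the genes when WT replicate 1 alone was left out and 5C replicate 3 was kept. Without it, 8 of the 9 genes could be fitted, since *Amn* fell under the count filter, and only *Lrp2* was still lower in 5C (log2 fold change -0.21). The other 7 took the opposite sign, at 0.73 for *Cubn*, 1.22 for *S100g*, 0.39 for *Pdzk1*, 0.34 for *Dab2*, 0.28 for *Lgals2*, 0.23 for *Folr1* and 0.07 for *Lrpap1*. Leaving out 5C replicate 3 instead moved the fit the other way, to -5.67 for *Cubn*, -6.17 for *S100g* and -6.32 for *Pdzk1*. *Lgals2* then had 0 counts in both remaining 5C libraries, and its mean in WT was at least 32.5-fold higher than the floor of those libraries. With WT replicate 1 and 5C replicate 3 both left out, a choice made after seeing the data, no fit was made. The remaining WT and 5C libraries then averaged 19.2 and 3.55 CPM for *Cubn* and 86.9 and 65.0 CPM for *Lrp2*. *Folr1* (3.09 and 1.9 CPM) was also lower in 5C, as were *Amn*, *Pdzk1*, *S100g* and *Lgals2* on few counts. *Dab2* was higher in 5C (30.6 and 36.3 CPM) and *Lrpap1* was level (55.9 and 56.0 CPM).

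**Figure D4:**
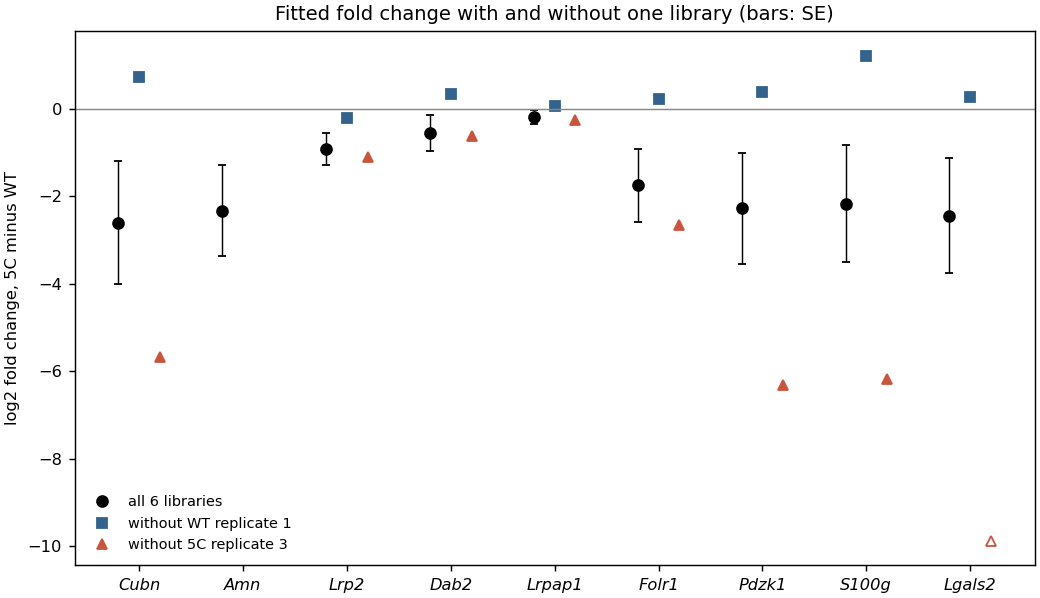
Fitted log2 fold change (5C minus WT) of the 9 genes with all 6 libraries (black, bars SE), without WT replicate 1 (blue squares) and without 5C replicate 3 (red triangles); *Amn* fell under the count filter when either library was left out, and the open triangle of *Lgals2* is a fit against 2 libraries at 0 counts. *Cubn* moves from -2.60 to 0.73 without WT replicate 1 and to -5.67 without 5C replicate 3.

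Over the whole table no gene passed an adjusted p under 0.05 with a fold over 1.5 (0.0% of genes tested by edgeR, 11 genes by DESeq2), and 583 genes (3.47%) were lower and 428 (2.55%) higher in 5C at an unadjusted p under 0.05. The partners of the 9 genes were read against those shares. These lists were also drawn up with earlier results known and are described by counts. No gene in any of the 4 passed the adjusted threshold. When no count filter was applied, 10 brush border genes and 8 ligands did, as did 319 of the 33139 genes then tested.

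The general endocytic machinery (clathrin, the AP2 adaptor, dynamin, endosomal Rab proteins) changed little in its summed level. Its 24 genes, all tested, summed to 2862, 2582 and 2661 CPM across the WT libraries and 2599, 2524 and 2581 CPM across the 5C libraries, and their median log2 fold change was -0.06, negative for 20 and positive for 4. *Cltc*, the clathrin heavy chain, was at 777 ± 85.9 CPM across the WT libraries and 706 ± 2.7 CPM across the 5C libraries. *Ap2b1* (267 to 289 CPM over the 6 libraries) and *Ap2a2* (212 ± 6.47 and 197 ± 11.8 CPM), subunits of the plasma membrane adaptor, differed as little. At an unadjusted p under 0.05, *Ehd1* was lower (log2 fold change -0.40, SE 0.12) and *Rab5a* higher (0.21, SE 0.08), both named after their values were seen. *Myo6*, a motor that carries endocytic vesicles, also named after its values were seen, was at 75.2 CPM in WT replicate 1 and at 35.0 to 47.9 CPM in the other libraries, with 5C replicate 3 second. None of the 24 reached 4-fold above the median of the other libraries in WT replicate 1.

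Of 27 brush border genes, 19 could be tested and 16 of these had a negative log2 fold change (median -0.44, but 0.06 without WT replicate 1). At an unadjusted p under 0.05, 4 of the 19 were lower and none higher, against 3.47% and 2.55% of all genes tested. These were *Vil1* (villin, which bundles microvillar actin), *Cdhr2* (a protocadherin that links microvilli), *Eps8* (an actin-capping protein) and *Enpep* (aminopeptidase A), named after their values were seen. The ranges of WT and 5C overlapped for all 19. Of all genes tested, 5.08% lay wholly lower and 6.3% wholly higher in 5C. WT replicate 1 was highest and 5C replicate 3 second in 11 of the 19, against 4.08% of all genes tested. In *Vil1*, *Cdhr2*, *Slc2a2*, *Slc39a4* and *Slc39a5*, picked for this, WT replicate 1 was at least 4-fold above the median of the other libraries, against 0.655% of all genes tested. *Vil1* was at 14.7, 0.428 and 0.955 CPM across the WT libraries and 0.242, 0.596 and 1.99 CPM across the 5C libraries. The most abundant genes of the list spanned narrower ranges. The zinc transporter *Slc39a8* was at 102 ± 21.7 and 102 ± 14.4 CPM and the endopeptidase *Mme* at 48.3 ± 5.39 and 54.4 ± 5.35 CPM. The membrane-cytoskeleton linker *Ezr* ranked the libraries as *Cubn* did, at 115, 74.9 and 83.5 CPM across the WT libraries and 72.9, 64.7 and 85.7 CPM across the 5C libraries. *Treh*, the trehalase of the brush border, had no count in any library.

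Ligands of megalin and cubilin were summed over a list that *Apob* (1641 of 3135 CPM in WT replicate 1) weighs on heavily. The list of 18, of which 14 could be tested, summed to 3135, 230 and 353 CPM across the WT libraries and 187, 178 and 698 CPM across the 5C libraries. The log2 fold change was negative for 12 genes and positive for 2, with a median of -0.66 that became 0.38 without WT replicate 1. WT replicate 1 was highest and 5C replicate 3 second in 9 of the 14, against 4.08% of all genes tested, while genes such as *Shh* and *Hp* were highest elsewhere. *Trf*, which encodes the iron carrier transferrin, stood at 493, 24.7 and 45.5 CPM across the WT libraries and 23.1, 20.5 and 90.2 CPM across the 5C libraries. *Apoe*, a lipid carrier, was at 109 ± 88.5 and 60.9 ± 24.9 CPM. *Hp*, which encodes the haemoglobin scavenger haptoglobin, named after its values were seen, was the only gene of the list at an unadjusted p under 0.05 and was higher in 5C (log2 fold change 1.12, SE 0.37) at levels under 1.5 CPM. *Scgb1a1* was not read in any library.

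The enzymes, receptors, channels and transporters listed for the handling of vitamin B12, folate and calcium did not share that library order. Of 17 genes, 12 could be tested, and the list summed to 598, 619 and 597 CPM across the WT libraries and 565, 575 and 566 CPM across the 5C libraries. None of the 12 had WT replicate 1 highest with 5C replicate 3 second. Instead 4 of the 12 (*Abcd4*, *Slc46a1*, *Fpgs* and *Atp2b1*) lay wholly lower in 5C, against 5.08% of all genes, and 2 of the 12 were lower at an unadjusted p under 0.05, against 3.47%. *Atp2b1*, a plasma membrane calcium pump, was at 236 ± 7.37 CPM across the WT libraries and 202 ± 15.6 CPM across the 5C libraries (log2 fold change -0.22, SE 0.07), and *Fpgs*, which adds glutamates to folate, was the other gene lower at that p. *Abcd4*, *Slc46a1* and *Fpgs* were named after their values were seen. *Trpv5*, a calcium channel, had 0 counts throughout.

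The samples are labelled whole embryo, and the 9 genes were set beside markers of the cell types that use them. Of 17 markers of yolk sac visceral endoderm, 15 could be tested. Their summed level was 6258, 233 and 484 CPM across the WT libraries and 168, 170 and 1250 CPM across the 5C libraries, the library order of *Cubn* apart from the lowest pair. WT replicate 1 was highest and 5C replicate 3 second in 13 of the 15, against 4.08% of all genes tested. In 12, WT replicate 1 was at least 4-fold above the median of the other 5 libraries, against 0.655%. This list was also drawn up with earlier results known. *Afp* was at 3083, 107 and 226 CPM across the WT libraries and 84.6, 87.1 and 631 CPM across the 5C libraries. *Apoc2*, in the same list, had no more than 0.0523 CPM in any library. How much of each embryo's yolk sac entered the lysate was not stated, and the part of these cells in the levels of the 9 genes was not tested.

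Markers of other cell types that express some of the 9 genes spanned narrower ranges. Markers of the hepatoblast, 9 genes of which 7 were tested, summed to 131, 84.0 and 119 CPM across the WT libraries and 95.2 to 96.9 CPM across the 5C libraries. *Tbx3* (41.0 ± 4.93 and 37.0 ± 0.58 CPM), *Onecut2* and *Prox1* were level. In that list *Serpina1b*, *Serpina1a*, *Alb* and *Ahsg*, named after their values were seen, were highest in WT replicate 1. There *Serpina1b* was 10.1-fold, *Serpina1a* 7.63-fold and *Alb* 1.92-fold above the median of the other libraries. *Serpina1a* (2.62 CPM there) and *Ahsg* (0.576 CPM) were too low to be tested. The 7 nephric markers summed to 35.0 to 47.8 CPM over all 6 libraries and the 7 markers of neuroepithelium, where *Lrp2* and *Folr1* are also used, to 725 to 827 CPM. The 8 gut tube markers summed to 62.0 to 82.8 CPM, highest in WT replicate 1 and second in 5C replicate 3 (73.4 CPM), and 3 of the 6 tested (*Cdx2*, *Foxa2* and *Epcam*) had that order themselves, against 4.08% of all genes. The part of gut cells in the levels of the 9 genes was not tested. At an unadjusted p under 0.05 the neuroepithelial genes *Sox2* and *Fabp7* were higher in 5C, by 0.25 and 0.24 on the log2 scale. Macrophage markers, relevant to *Dab2*, summed to 39.8 to 64.4 CPM, of which *Lyve1* alone, named after its values were seen, was over 4-fold above the median of the other libraries in WT replicate 1. Placental trophoblast markers summed to 3.49 to 12.9 CPM and were highest in 5C replicate 3, through *Prl3d1* (4.69 CPM), and *Synb* was at 0 throughout.

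**Figure D5:**
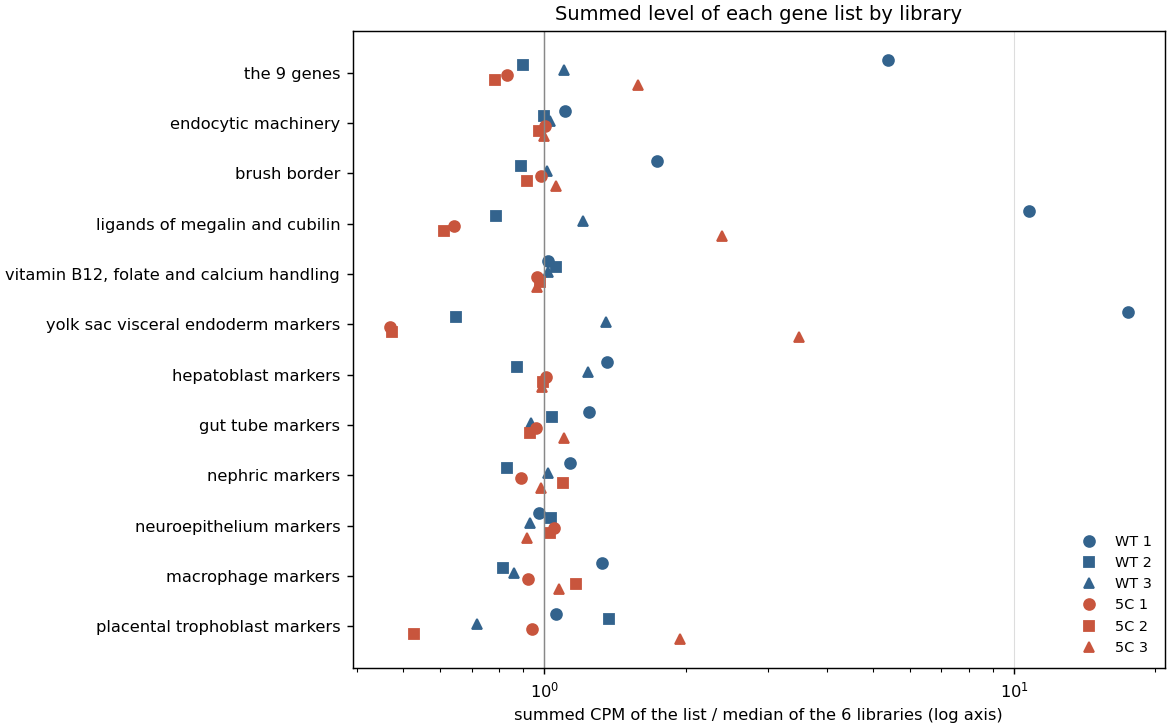
Summed CPM of each gene list in each library divided by the median of the 6 libraries (log axis), with WT in blue, 5C in red and the shape giving the replicate. Some genes sit in 2 lists. *Apob*, *Apoa1*, *Ttr*, *Trf* and *Rbp4* are in both the ligands and the yolk sac endoderm markers, so these rows are not independent. The 9 genes, the ligands and the yolk sac endoderm markers stand out most in WT replicate 1 (1088, 3135 and 6258 CPM). The brush border (580 CPM) and several other lists are also highest there. The endocytic machinery and the vitamin and calcium list stay near 1.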

How the data were processed

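The authors sequenced poly(A)-selected, strand-specific libraries of whole embryos with single-end reads, aligned these to GRCm38 in STAR, using Ensembl gene models, and deposited raw counts per Ensembl gene for 6 libraries, without normalization or filter. STAR's gene counting drops reads under exons of several genes, which lowers overlapping genes, and the strand setting was not given in the sources used here. Symbols, positions, 3′ UTRs and exon lengths came from a GENCODE annotation of the same build, with 55141 of 55401 identifiers matched. Genotype and replicate number were taken from the sample titles. Every pair of libraries differed by a chi-square of 5.76 or more per gene, so none was counted as a repeat of another.

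Low genes were removed with filterByExpr, library totals were scaled with TMM factors (trimmed mean of M values), and the genotypes were compared over all remaining genes by the two-sided quasi-likelihood F-test of edgeR 4.0.16 in R 4.3.3, with Benjamini-Hochberg adjustment. DESeq2 1.42.0 and limma-voom (limma 3.58.1) were alternatives. Correlations used log2 CPM with a prior count of 2. Per-kilobase levels divide CPM by the merged exon length. Floors cover counting error only.

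The members and the gene lists were chosen with earlier results of these data known. By a fixed rule, named genes were the 9 members, the 3 most abundant genes of each other list at most (some are not reported here), the 10 genes most like *Cubn* and the 5 most like *Lrp2* among those with a mean of at least 10 CPM, *Mir483*, *Xist* and *Ddx3y*. All other genes named, such as those behind small counts or at 0 throughout, were picked after their values were seen.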

Additional observations from a re-analysis of the deposited data

How the results depend on the processing

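All 9 genes were lower in 5C under every scaling, under DESeq2, limma-voom and robust moderation, and without a count filter, and a filter of 10 counts in every library kept 5 of them, all lower. Under limma-voom the log2 fold changes of the genes with counts at or near 0 moved to -4.69 (*Lgals2*), -3.93 (*Pdzk1*) and -3.08 (*S100g*). Their median log2 fold change was -2.17 and ranged from -4.17 to 0.31 when each library was left out in turn, the highest without WT replicate 1 (8 genes). The lowest, without 5C replicate 3, becomes -3.84 with *Lgals2* at its bound against the floor. Over the same series of omissions the log2 fold change ranged from -5.67 to 0.73 for *Cubn*, -1.2 to -0.21 for *Lrp2*, -0.89 to 0.34 for *Dab2*, -0.32 to 0.07 for *Lrpap1*, -2.66 to 0.23 for *Folr1*, -6.32 to 0.39 for *Pdzk1*, -6.17 to 1.22 for *S100g* and -9.87 to 0.28 for *Lgals2*, where the lowest value is a fit against libraries at 0 and is no bound. The list medians went from -0.73 to 0.06 for the brush border and from -1.18 to 0.38 for the ligands, the highest again without WT replicate 1. With 1 library left out, r with *Cubn* ranged from 0.329 to 0.898 for *Dab2* and from 0.519 to 0.941 for *Lrpap1*, lowest without WT replicate 1. Without both WT replicate 1 and 5C replicate 3 it was -0.299 and -0.474.

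The number of genes past the adjusted threshold was 0, and 319 (of 33139 tested) without a count filter, 11 with DESeq2, 3 with robust moderation and 0 to 1 with a library left out. Without a count filter, 10 brush border genes and 8 ligands passed, and 2170 genes had an unadjusted p under 0.05, against 1011. That number ranged from 456 (without 5C replicate 2) to 1803 (without WT replicate 2) with a library left out. The cause was not tested. The replicate number as a block gave 782 genes at that level, 0 past the adjusted threshold and a median of -1.97 for the 9 genes. Deviations of equal numbers had r from -0.1743 to 0.202, against -0.1986 to 0.3071 for unequal numbers. The sample titles name no pairing, and so few correlations cannot show whether pools of equal number shared litters. At 3 counts as a floor, *Amn* cannot be ranked among the libraries where it was low. *Pdzk1*, *S100g* and *Lgals2* had 9 to 21 counts in WT replicates 2 and 3 and 0 to 5 in 5C replicates 1 and 2. Their order within either of these sets is not settled.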
